A study of Homo sapiens with 24 samples.

Results

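The mRNAs of the MLL family, which encode the methyltransferases that modify lysine 4 of histone H3 (H3K4), were described through the Ago2 binding peaks listed on them. Members were all peaks whose annotated gene, in the older symbols used by the authors, was MLL, MLL2, MLL3, MLL4, SETD1A or SETD1B. All 6 genes were listed, with 147 of the 24041 peaks of the table. The peaks compare 293S cells, of human embryonic kidney origin, that received 1 mM sodium arsenite during 30 min with untreated 293S cells, 4 biological replicates each. In CLIP, RNA is crosslinked to a protein and recovered with an antibody to it, here one to Ago2, the Argonaute protein on which a miRNA pairs with mRNAs. Separate Ago2 libraries, the LO band of the labels, gave miRNA abundance in both groups. The tables hold 1 value per peak or miRNA over all replicates, so values of single samples, their spread, the sequencing depth and a test between treatments could not be given, and RNA-seq values were not used here. Differences below are therefore descriptions of 1 table, and peaks of 1 mRNA are not replicates.

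Mono-, di- and trimethylation of H3K4 mark enhancers and promoters, and each enzyme of the family works in a complex built on shared core subunits. MLL (now KMT2A) and MLL4 (now KMT2B) are close relatives that act mainly at promoters, with MLL known for its translocations in leukaemia. MLL2 (now KMT2D) and MLL3 (now KMT2C) are close relatives that methylate H3K4 at enhancers, and MLL2 is mutated in Kabuki syndrome. SETD1A and SETD1B carry out most trimethylation at active promoters. The names MLL2 and MLL4 have been exchanged in the literature, and the positions in the table settle their use here: MLL2 peaks lay on chromosome 12 (NM_003482) and MLL4 peaks on chromosome 19 (NM_014727), all on genome build hg19. miRNAs on Ago2 find mRNAs mainly through their seed, bases 2 to 8, and most known sites lie in 3' untranslated regions (3'UTRs).

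The authors marked each peak with the miRNA families whose 7-nucleotide seed match it holds. Of the 50 families in the table, 25 had a match in at least 1 of the 147 peaks, and 38 peaks held a match. The mature sequences of 7 families are shown because their matches recur in several of the genes or lie at the peaks described below; they come from RefSeq (GRCh38.p14), the name is that of the family member with the highest authors' mean, capitals mark the seed, and each of the 7 has a seed of its own.
hsa-miR-16-5p: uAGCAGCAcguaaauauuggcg
hsa-miR-30e-5p: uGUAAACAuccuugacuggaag
hsa-miR-181a-5p: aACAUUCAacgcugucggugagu
hsa-miR-301a-3p: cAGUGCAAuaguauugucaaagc
hsa-miR-17-5p: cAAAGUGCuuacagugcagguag
hsa-miR-449a: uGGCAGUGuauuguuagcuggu
hsa-miR-331-3p: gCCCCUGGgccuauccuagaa
Where within a peak the match to a seed lies is not given in the table.

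The 6 mRNAs lay in different parts of the range of log ratios, which give arsenite over untreated normalized CLIP signal. MLL had the highest median log ratio, 1.55 over 20 peaks, followed by MLL3 with 1.06 over 18, SETD1B with 0.65 over 9 and SETD1A with 0.55 over 20. MLL4 and MLL2 had medians close to 0, at -0.03 over 22 peaks and -0.05 over 58. Within both pairs of close relatives, MLL with MLL4 and MLL3 with MLL2, 1 gene thus lay above the median of all peaks, 0.65, and the other below it. These medians pool regions in unlike shares. 3'UTR peaks were 75% of those of MLL and 61.1% of MLL3, against 9.1% in MLL4 and 41.4% in MLL2. Over coding sequence peaks alone, MLL with -0.44 lay below MLL4 with -0.11, and MLL3 with 0.19 lay above MLL2 with -0.13. The log ratios are the authors' own, and neither their log base nor their normalizer is stated, so they were not turned into folds. For the same reason more Ago2 per mRNA, more mRNA per cell and more cells cannot be told apart.

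Of the 147 peaks, 90 had a log ratio above 0, which is 61.2% (Wilson 95% interval over peaks 53.2 to 68.7%, for counting error only). Of all listed peaks, 70.3% lay above 0. The 524 other genes with at least 10 peaks had 61.7% of their peaks above 0, close to the family's share with regions pooled. Within regions the shares were not alike. In coding sequence, 45.3% of the family's peaks lay above 0, against 61.9% in those genes, and in 3'UTRs 82.5% against 67.2%. Coding sequence peaks made up 58.5% of the family's peaks and 35.4% of those of the other genes. By gene, 15 of 20 peaks of MLL, 26 of 58 of MLL2, 15 of 18 of MLL3, 11 of 22 of MLL4, 17 of 20 of SETD1A and 6 of 9 of SETD1B lay above 0. MLL2 alone held 39.5% of the peaks of the family, and without it the share above 0 was 71.9%. By region, the share without MLL2 was 53.8% in coding sequence (Wilson 95% interval over peaks 40.5 to 66.7%) and 97.0% in 3'UTRs. Of coding sequence peaks, 32.4% lay above 0 in MLL2 and 80% in SETD1A, the only one of the 6 genes above 61.9%.

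The interquartile ranges overlapped between genes that follow each other in the order of medians. The quartiles were 0.31 and 2.002 for MLL, 0.46 and 2.30 for MLL3, and -0.30 and 0.86 for SETD1B. They were 0.13 and 0.95 for SETD1A, -0.36 and 0.20 for MLL4 and -0.32 and 0.56 for MLL2. The interquartile range of MLL4 lay below those of MLL and MLL3 without overlap, whereas that of MLL2 overlapped all others. Medians over peaks of all regions together were also ranked among the 151 genes of the table with at least 20 peaks. Of these, 147 had a lower median than MLL, 99 a lower one than SETD1A, 45 a lower one than MLL4 and 41 a lower one than MLL2.

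**Figure D1:**
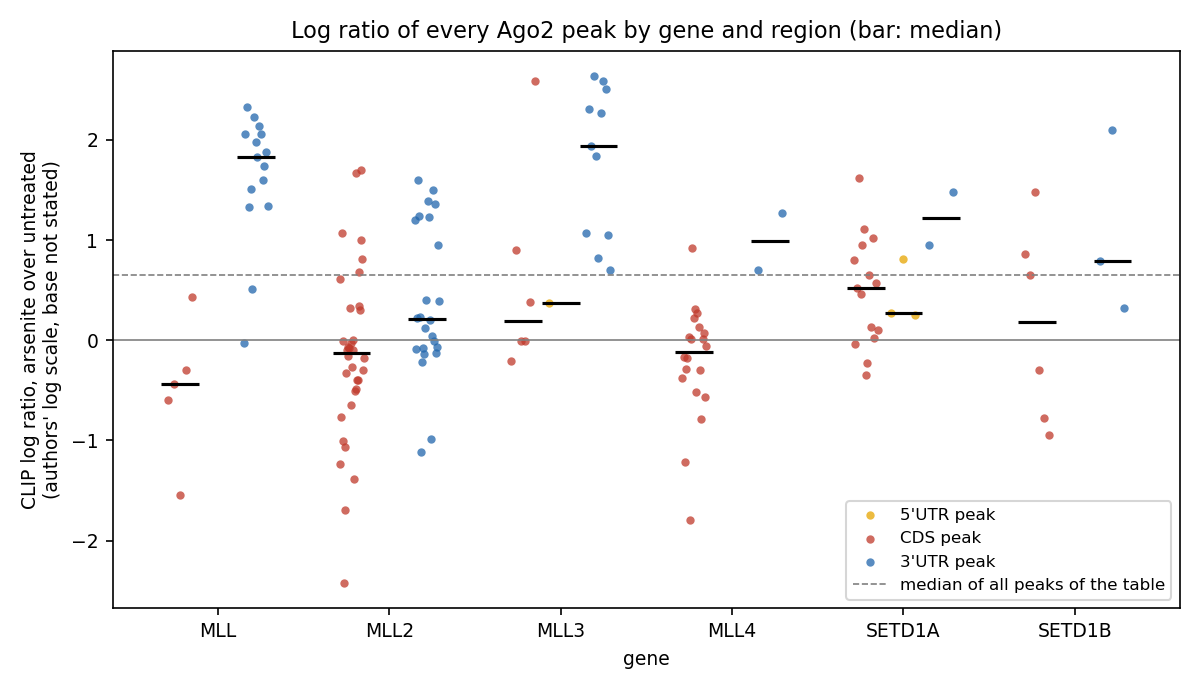
Each point is 1 Ago2 peak of the 6 genes, placed by its log ratio of arsenite over untreated CLIP signal (vertical axis, authors' log scale) and grouped by gene and transcript region; black bars are medians and the dashed line is the median of all peaks, 0.65. The 3'UTR peaks of MLL and MLL3 form the highest groups, and most coding sequence peaks of MLL2 lie below 0.

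The region of the transcript went with the log ratio inside these mRNAs, most clearly in MLL and MLL3. In MLL the 15 peaks of the 3'UTR had a median of 1.83, with 14 of them above 0, and the 5 peaks of the coding sequence (CDS) a median of -0.44, with 1 above 0. In MLL3 the 11 peaks of the 3'UTR had a median of 1.94 and all lay above 0, while its 6 CDS peaks had a median of 0.19, with 3 above 0. Over all genes, 76.2% of 3'UTR peaks and 68.4% of CDS peaks lay above 0, with medians of 0.88 and 0.58. A log ratio above 1 was listed for 13 of the 15 peaks in the 3'UTR of MLL and 9 of the 11 in that of MLL3, against 45.8% of all 3'UTR peaks and 7 of 24 in the 3'UTR of MLL2.

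The other 4 mRNAs had the same order of regions with smaller differences or few 3'UTR peaks. The 24 peaks in the 3'UTR of MLL2 had a median of 0.22, with 15 above 0, and its 34 CDS peaks had a median of -0.13, with 11 above 0. MLL4 is covered almost only in its CDS, with 20 peaks of median -0.11, while its 2 peaks in the 3'UTR had 0.71 and 1.27. In SETD1A the CDS median was 0.53 over 15 peaks, and the 2 peaks in the 3'UTR had 0.95 and 1.48. In SETD1B the CDS median was 0.18 over 6 peaks and the 3'UTR median 0.79 over 3. The 5'UTR carried 3 peaks in SETD1A, from 0.26 to 0.81, and 1 in MLL3, with 0.37, where 60.8% of all 5'UTR peaks of the table lay above 0.

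The difference between the 3'UTR and CDS medians of a gene was 2.27 in MLL, 1.76 in MLL3, 0.61 in SETD1B and 0.35 in MLL2. Over the 407 genes of the table with at least 3 peaks in each region it had a median of 0.21 (quartiles -0.37 and 0.73), and 62.7% of these genes were above 0. Of the 407, 4 genes had a larger difference than MLL (0.983%), 16 a larger one than MLL3 (3.93%), 120 a larger one than SETD1B and 176 a larger one than MLL2. MLL4 and SETD1A had only 2 peaks in the 3'UTR and were not ranked; their differences were 1.10 and 0.69. Of the 5 CDS peaks of MLL, 4 lay within one stretch (chr11:118307307-118307651), so its CDS value rests on few places.

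**Figure D2:**
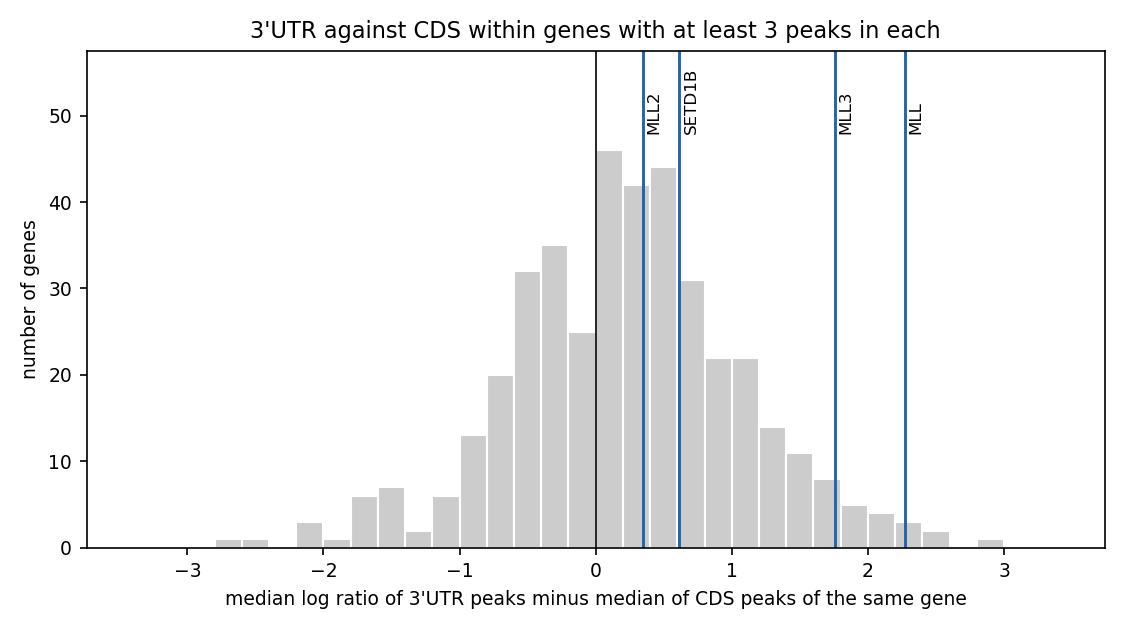
Number of genes (vertical axis) by the median log ratio of their 3'UTR peaks minus that of their CDS peaks (horizontal axis), for the 407 genes with at least 3 peaks in each region; blue lines mark members of the family. MLL at 2.27 and MLL3 at 1.76 lie far to the right, and MLL2 at 0.35 and SETD1B at 0.61 lie in the body of the distribution.

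MLL, the founding member of the family, had low log ratios near its 5' end and high ones in its 3'UTR. Its first 4 CDS peaks from the 5' end had log ratios from -1.55 to -0.30, with the lowest at chr11:118307374-118307446, and the fifth had 0.43. The first peak of the 3'UTR had -0.03, and each of the 14 that followed lay between 0.51 and 2.33. The highest, at chr11:118394226-118394264, holds a miR-30 seed match. The peak with the highest log average, -5.76 at chr11:118397393-118397435, is the most 3' one, has a log ratio of 1.34 and matches miR-181.

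MLL3 had its high values at the 3' end. Its peaks from the 5'UTR on had 0.37, -0.21, 0.90, -0.01, -0.01 and 0.38, and the last CDS peak had 2.59 at chr7:151841829-151841911, with a miR-18a-5p match. The 11 peaks of the 3'UTR ran from 0.70 to 2.64. The peak of 2.64 at chr7:151833331-151833384 was also that of the highest log average of the gene, -5.07, and matches the families of miR-301a-3p and miR-188-5p. The 2 CDS peaks with -0.01 lie in separate places (chr7:151882695-151882716 and chr7:151884346-151884373) and have identical log averages and log ratios, as have 563 peaks of the table that share both values with another peak of their gene. In MLL2, the overlapping CDS peaks chr12:49432251-49432282 and chr12:49432278-49432309 also share both values. Parts of the MLL3 coding sequence have near-identical copies elsewhere in the human genome, and how reads with several matches were treated is not given in the sources used here. Why values of such peaks are identical was not tested.

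MLL2 had high and low stretches within its coding sequence. Only 6 of the 6088 genes of the table had more peaks. Peaks less than 1000 nucleotides apart were grouped for this description. The most 5' group of several peaks (chr12:49444019-49446165) held 13 peaks with a median of -0.33, of which 1 was above 0, and the lowest value of the family, -2.42 at chr12:49445028-49445079. A second group (chr12:49432251-49435265) held 11 peaks with a median of -0.40, of which 2 were above 0. Closer to the 3' end, the 3 peaks of chr12:49425031-49425109 and the 3 of chr12:49420554-49420961 all lay above 0, with medians of 0.34 and 1.00. The highest value of the gene, 1.70, lay among them at chr12:49420839-49420875.

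The last group of MLL2 (chr12:49413045-49415642), which spans the end of the CDS and the 3'UTR, held 26 peaks from -1.12 to 1.60, with 15 above 0. High and low peaks alternated there. The peak with the highest log average, at chr12:49414048-49414147, had a log ratio of 0.40, and a shorter peak inside it, chr12:49414121-49414147, had 1.39. Merging overlapping peaks left 43 of the 58 places in MLL2 and 118 of the 147 in the family.

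**Figure D3:**
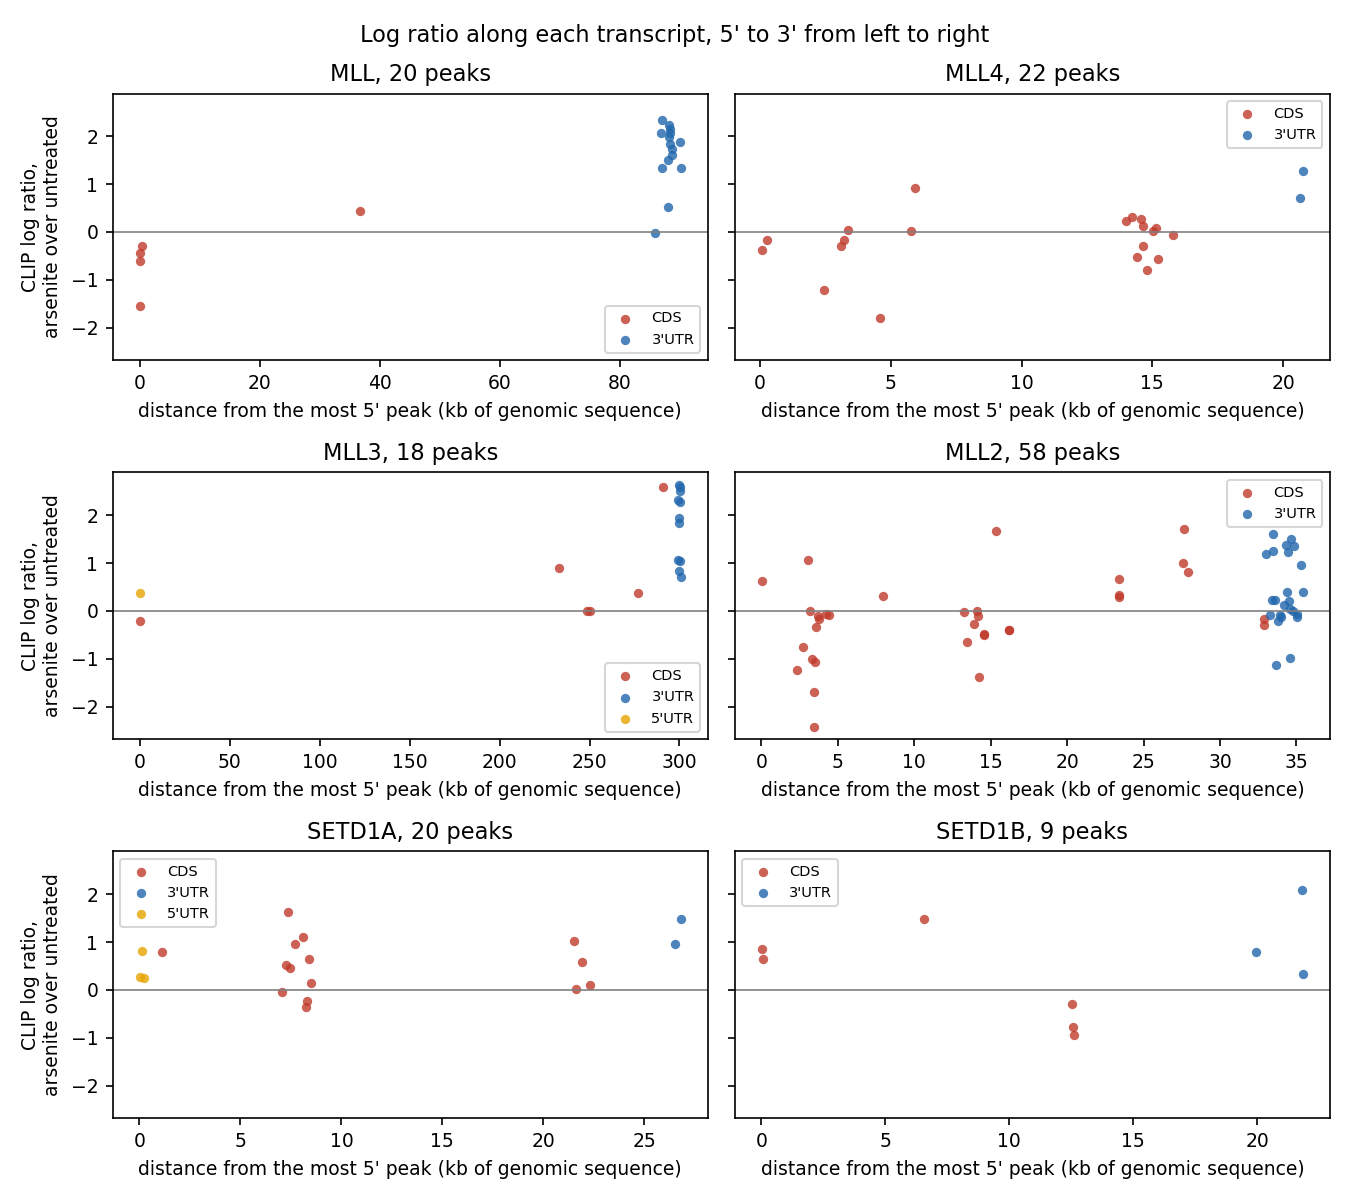
Log ratio of arsenite over untreated CLIP signal of each peak (vertical axis) by its distance in kb of genomic sequence, introns included, from the most 5' peak of the gene (horizontal axis), with colours for CDS, 3'UTR and 5'UTR. MLL and MLL3 have their highest values at the 3' end, and MLL2 has low groups in its 5' part and mixed values at the end.

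MLL4, the relative of MLL, had its lowest values, -1.80 and -1.22, in the 5' part of the coding sequence. The next lowest, -0.79, lay further on, where the values of MLL4 fell on both sides of 0. Its 11 CDS peaks in the group at chr19:36222914-36224755 had a median of 0.01, from -0.79 to 0.32. Further 5', 4 peaks at chr19:36211349-36212343 had a median of -0.23, of which 1 was above 0, and both peaks of the most 5' group lay below 0. The lowest value was -1.80 at chr19:36213519-36213574, a peak with a miR-15/16 match, and the highest of the CDS 0.92. The peak of the highest log average, -3.22 at chr19:36224120-36224211, had a log ratio of -0.56. The highest log ratio, 1.27, was at the 3'UTR peak chr19:36229669-36229721, which matches the miR-17 family.

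SETD1A had mostly positive values of moderate size. From the 5' end, its group of 5'UTR and first CDS peaks lay between 0.26 and 0.81, 10 CDS peaks at chr16:30976048-30977526 between -0.35 and 1.62, and 4 CDS peaks at chr16:30990488-30991331 between 0.02 and 1.02. The highest value was at chr16:30976325-30976383, and the 3 values below 0 all lay within that group of 10. The peak of the highest log average (chr16:30977259-30977322, with a miR-188-5p match) had -0.23, unlike the gene's median of 0.55.

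SETD1B was covered by the fewest peaks. The first 3 CDS peaks had log ratios of 0.86, 0.65 and 1.48, and the next 3, which overlap at chr12:122261101-122261255, had -0.30, -0.77 and -0.95. Its 3 peaks in the 3'UTR had 0.79, 2.09 and 0.32, of which the last, at chr12:122270416-122270467, had the highest log average of the gene.

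Seed matches did not separate the peaks of the family as they did those of the table. The median log ratio was 0.27 over the 38 matched peaks and 0.26 over the 109 others, while over the whole table the medians were 1.06 with and 0.48 without a match. By region, the table medians were 1.20 with and 0.68 without a match in 3'UTRs, and 0.96 and 0.45 in the CDS. In the 3'UTRs of the 6 genes, the median was 0.95 over 20 matched peaks and 1.24 over the 37 others, and in the CDS the medians were -0.03 over 17 peaks and -0.07 over 69. When only families holding at least 1% of the summed miRNA means counted as a match, 18 peaks had one and their median lay 0.63 above that of the others, so that the result depends on which families are counted. Of all peaks of the table, 79.2% of those with a match and 66.2% of those without one lay above 0. In MLL3 all 7 matched peaks did, with a median of 2.27, and 8 of the 11 others, with a median of 0.70. In MLL2 these were 3 of 10 matched peaks (median -0.06) and 23 of the 48 others (median -0.03). SETD1A had 3 of 5 matched peaks above 0 (median 0.27) and 14 of the 15 others (median 0.58). In MLL the counts were 6 of 8 matched peaks (median 1.47) and 9 of the 12 others (median 1.62), and in MLL4 3 of 6 (median -0.03) and 8 of 16 (median -0.08). SETD1B had only 2 matched peaks.

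The same family could mark high peaks in 1 mRNA and low ones in another. The miR-15/16 family, led by miR-16-5p, had matches in 8 peaks of 4 of the genes. MLL had 1.60 in its 3'UTR and -0.60 in its CDS, MLL3 had 0.82, MLL2 had 0.32, -0.08 and -0.14, and MLL4 had -0.06 and -1.80. Over the table the 994 peaks with this match had a median of 0.92. The families of miR-181 and of miR-130/301, led by miR-181a-5p and miR-301a-3p, matched 1 peak each in the 3'UTRs of MLL and MLL3, with 1.34 and 2.31 for miR-181 and 0.51 and 2.64 for miR-130/301. The 2 miR-30 matches, both in the 3'UTR of MLL, had 2.33 and -0.03.

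Matches of the families led by miR-17-5p, miR-449a and miR-331-3p had different median log ratios, in the same order as over the table. The miR-17 family matched 3'UTR peaks of MLL4 and MLL3, with 1.27 and 1.07, where the median over all its matched peaks was 1.67. The family of miR-34a and miR-449a matched 2 peaks of MLL2, with -0.10 and -1.12, and 1 of SETD1A, with -0.04, where its table median was 0.18. The miR-331-3p match lay in peaks of MLL2 with 0.20 and -0.03 and in 1 of MLL4 with 0.01, where its table median was 0.33. let-7 matches had 1.11 in SETD1A, 0.23 in MLL2 and -0.52 in MLL4, where the table median was 1.42. The miR-196 match at chr12:49445235-49445295 in MLL2 had -0.01, where the 204 peaks of the table with this match had a median of 1.39.

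Further families matched 1 or 2 peaks each. In MLL the families of miR-193b-3p and of miR-101-3p with miR-27a-3p marked 3'UTR peaks with 2.23 and 1.83. In MLL3 those of miR-222-3p and miR-21-5p marked peaks with 2.27 and 0.90, and miR-194-5p shared the miR-15/16 peak. The miR-23b-3p family matched a peak of SETD1B with 0.79 and one of MLL2 with 0.23. The miR-324-3p match lay in a peak of SETD1A with 0.65 and in one of MLL2 with -0.22, and the miR-188-5p match in peaks of MLL3 with 2.64 and SETD1A with -0.23. The miR-125b-5p family matched a peak of SETD1A with 0.27 and one of MLL4 with -0.52. SETD1B had -0.30 at its miR-7-5p match and MLL4 0.27 at its miR-378a-3p match. The 3 families led by miR-17-3p, miR-18a-3p and miR-210 matched only peaks that also hold a match named above.

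None of the miRNAs that lead these families passed the authors' DESeq test between treatments. By DESeq, 0 of 1213 miRNA entries (0%) of the authors' deposited table had an adjusted p under 0.05, and 24 had an unadjusted p under 0.05. In the authors' deposited table, miR-16-5p averaged 1016984 normalized counts with arsenite and 1001623 untreated, a log2 fold change of 0.02. The authors' deposited table gives miR-30e-5p as 1784402 with arsenite and 2014629 untreated, a log2 fold change of -0.18. The values of miR-17-5p in the authors' deposited table were 444032 with arsenite and 449539 untreated, a log2 fold change of -0.02. miR-181a-5p and miR-301a-3p had log2 fold changes of -0.04 and 0.30, and miR-449a one of -0.67, in the authors' deposited table, where the adjusted p by DESeq was 1 for each. The lowest p among leading miRNAs was that of miR-324-3p, with a log2 fold change of -0.60 in the authors' deposited table (DESeq p = 0.0077, adjusted p = 1). An adjusted p of 1 does not show that these miRNAs were unchanged.

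The log averages, which give the normalized signal of both treatments together, ordered the genes differently. Their medians were -7.30 in MLL, -6.98 in MLL3, -6.03 in MLL2, -5.11 in SETD1A, -4.29 in MLL4 and -4.08 in SETD1B, where the median of all peaks was -5.18. Only 1 of the 20 peaks of MLL and 2 of the 18 of MLL3 lay above the first quartile of all peaks, -6.25. The high median log ratios of these 2 genes thus come mostly from peaks of low signal. All peaks of MLL and MLL3 lay below all those of MLL4 and SETD1B, whereas MLL and MLL3 overlapped, as did MLL4 and SETD1B. Since the normalizer is not stated, this order is that of the authors' scale and not of Ago2 per length of mRNA. Median peak lengths ran from 43.5 nucleotides in MLL to 76.5 in SETD1A, against 50 in the table. In MLL the 8 peaks of at least 50 nucleotides had a median log ratio of 0.20, against 1.55 over all 20, as 4 of its 5 CDS peaks but only 4 of its 15 peaks in the 3'UTR were that long.

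Peaks of other mRNAs with like log averages give a second comparison. CDS peaks of other genes in the range of the MLL2 CDS peaks had a median log ratio of 0.71, against -0.13 in MLL2, and those in the range of MLL4 had 0.45, against -0.11 in MLL4. 3'UTR peaks of other genes in the ranges of MLL, MLL3 and MLL2 had medians of 0.89, 0.91 and 0.92, against 1.83, 1.94 and 0.22 in these genes. Over other genes with at least 10 peaks, whatever their log average, the medians were 0.33 for CDS and 0.52 for 3'UTR peaks. The part of signal level, peak length or peak number in these differences was not tested.

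**Figure D4:**
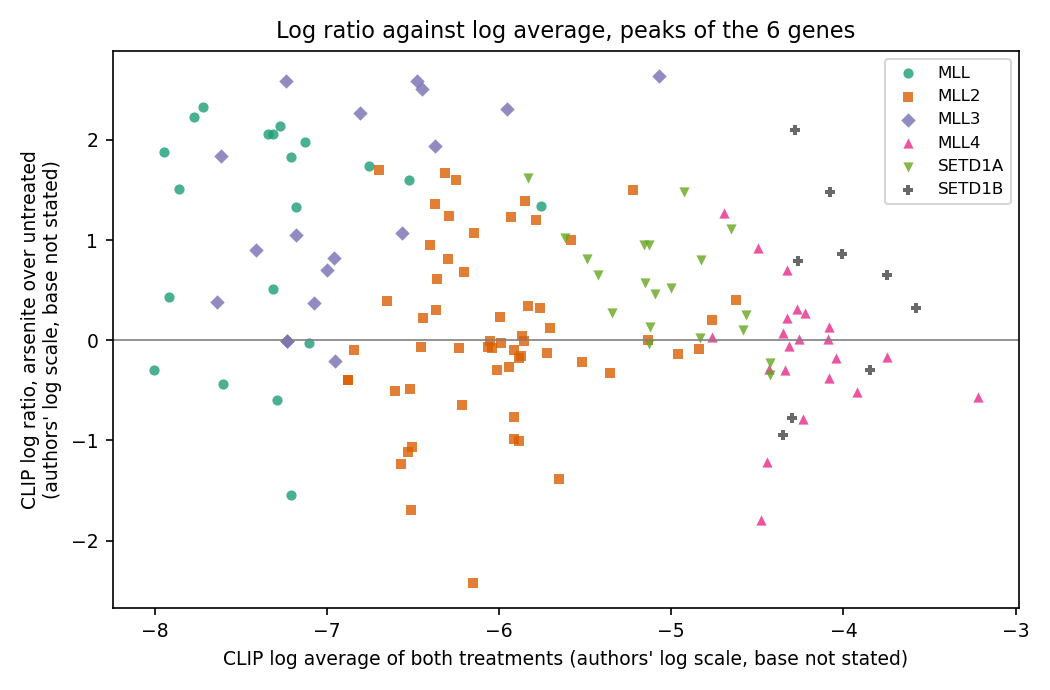
Log ratio of arsenite over untreated CLIP signal (vertical axis) against log average of both treatments (horizontal axis) for the 147 peaks of the 6 genes, on the authors' log scale. MLL and MLL3 lie at the left, with medians of -7.30 and -6.98, and MLL4 and SETD1B at the right, with -4.29 and -4.08.

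The partners of these enzymes were described with 1 median per gene over its peaks. Of 25 subunits and cofactors of MLL and SET1 complexes, 18 were listed, 16 of them with a median above 0, where 81.3% of all 6088 genes had one. Their median was 1.21, against 0.91 over all genes, and 10 of the 18 lay above that value. AFF4, a scaffold of the super elongation complex joined to MLL fusion proteins, had 2.23 over 9 peaks and NCOA6, a subunit of the MLL2 and MLL3 complexes, 2.18 at 1 peak. The lowest were TASP1, the protease that cleaves MLL, with -1.37 at 1 peak, and HCFC1, a host cell factor shared by MLL and SET1 complexes, with -0.10 over 20. Of the core subunits WDR5 had 0.48 and RBBP5 0.22, and ASH2L and DPY30 were not listed.

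Of 27 other histone lysine methyltransferases 16 were listed, 14 with a median above 0, and the list had a median of 1.18. The H3K9 enzyme SUV39H2 had 2.54 at 1 peak and the H4K20 enzyme SUV420H1 2.25 over 2. WHSC1, an H3K36 enzyme, had -0.74 over 14 peaks and EZH1, an H3K27 enzyme, -0.09 over 7. Of 9 H3K4 demethylase genes and their corepressors, which remove the mark the family sets, 6 were listed, with a median of 0.79. KDM1A and its partner RCOR1 had 1.08 and 1.07 over 2 peaks each, and RCOR3 and KDM5C had 0.00 and -0.24.

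**Figure D5:**
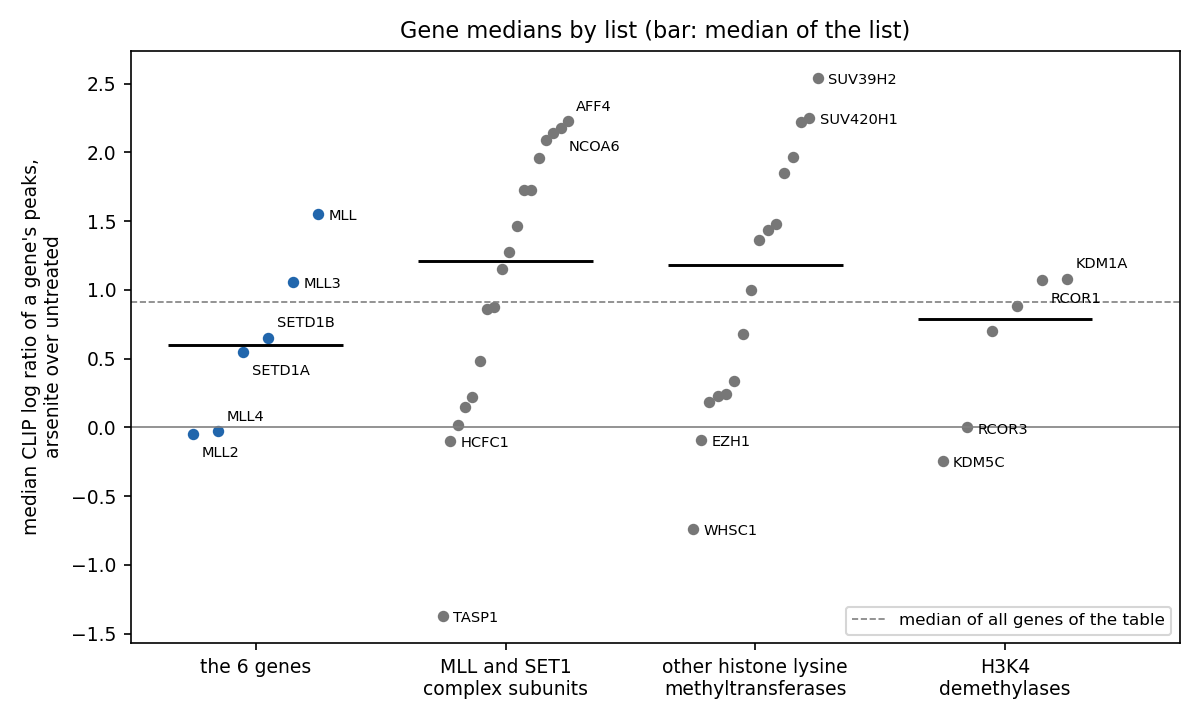
Median log ratio of arsenite over untreated CLIP signal over the peaks of a gene (vertical axis), for the 6 genes and for 3 lists of related genes; each point is a gene, bars are list medians, and the dashed line is the median of all genes, 0.91. MLL2 and MLL4, with 58 and 22 peaks, lie near 0, in the lower part of the range of the related genes. The listed related genes have from 1 to 20 peaks, and those with 20, HCFC1 and NSD1, have medians of -0.10 and 0.23.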

How the data were processed

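The series holds 24 samples in 6 groups of 4 biological replicates, from 293S cells with and without arsenite: CLIP of Ago2, its LO band, and RNA-seq, whose values were not used here. Build hg19 and the tools DESeq, TopHat and Bowtie 0.12.8 come from the submitters' processing notes, which give no role or order. The sources used here give neither the peak caller nor the CLIP normalizer. Log averages and log ratios of peaks are used as scores deposited by the authors, per the file headers, with no stated log base. The deposited miRNA table (miRBase 18 names) holds signal values, that is counts divided by size factors and averaged per treatment by the authors. It also holds their ratio (fold), log2 fold change and DESeq p-values, all deposited by the authors. No column holds a single sample (0 columns), so depth is unknown and the limma fit foreseen could not be made.

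Coordinates are as deposited. No source states whether starts count from 0 or 1, and lengths are end minus start plus 1. Gene symbols were matched to current ones for 6 of 6 genes. Medians, quartiles and shares above 0 were computed per gene and region with pandas 2.3.3 and SciPy 1.17.1, without any test. Intervals of shares are Wilson 95% intervals. Those of medians are 95% intervals taken from the ordered values, or the whole range where values are too few. Intervals over peaks are too narrow, since peaks of a gene overlap. The functions were tested on simulated data. The genes, the gene lists and the rule for named genes were chosen with earlier results of these data known: all 6 genes, of each the peaks with the highest log average, the highest and the lowest log ratio and those with seed matches, the 2 highest and 2 lowest genes of each list (with WDR5, RBBP5, ASH2L and DPY30 added afterwards), the 3 genes most like MLL2 and the leading miRNA of each matched family.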

Additional observations from a re-analysis of the deposited data

How the results depend on the processing

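Medians and shares were recomputed under 56 alternatives, and 38 kept the sign and stayed within the interval over peaks or genes of the value given above. All those of SETD1B and of the 3 gene lists were among them. Such an interval is wide where values are few, as for the 9 peaks of SETD1B or 6 demethylase genes, so staying within it says little there. The upper 75% of log averages kept all 22 peaks of MLL4, 20 of SETD1A and 9 of SETD1B, so those values could not change. Restricted to CDS peaks, the share above 0 was 45.3% and the median -0.034 for the 6 genes together, -0.44 for MLL, -0.13 for MLL2 and 0.19 for MLL3. With 3'UTR peaks only, an alternative chosen after the data had been seen, the median was 0.22 for MLL2, 0.99 for MLL4 and 1.22 for SETD1A. The single peak of the highest log average gave 0.40 for MLL2, -0.23 for SETD1A, -0.56 for MLL4 and 2.64 for MLL3. Peaks in the upper 75% of log averages gave 2.47 for MLL3, from 2 peaks, and 1.34 for MLL, from 1 peak. That peak of MLL is also its peak of the highest log average, so for MLL these 2 alternatives are the same. Peaks of at least the median length gave 0.20 for MLL. Without MLL2, also chosen afterwards, 71.9% lay above 0 and the median was 0.53, against 0.27. The share above 0 differed by -9.11 percentage points from that of the rest of the table and by -0.46 points from that of other genes with at least 10 peaks. The latter comparison pools regions, whose shares differed in opposite directions. Counting only families of at least 1% of the summed means, peaks with a seed match had a median 0.63 above the others, against 0.02. The cause was not tested. No paired analysis was possible because the tables hold no values of single samples, and for the same reason no replicate could be left out in turn and depth sets no stated limit.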

Other observations

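The genes with at least 20 peaks whose log ratios were distributed most like those of MLL2, by the distance between their quartiles and medians, were IRS4, an insulin receptor substrate, MIDN and ADARB1, an adenosine deaminase that edits RNA. IRS4 had a median of -0.01 over 40 peaks (distance 0.11), MIDN -0.04 over 48 (distance 0.14) and ADARB1 0.02 over 32 (distance 0.15). The likeness rests on 3 numbers per gene, chosen among 151 genes, and says nothing of shared regulation.

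The base composition of the matched seeds differed between the genes. Of the 50 families 46 had a mature sequence in RefSeq, 23 of them with at most 3 G or C among the 7 seed bases and 23 with at least 4. MLL3 had 5 of its 7 matched peaks with at most 3 G or C only, and MLL 5 of 8, as in the seed of miR-30e-5p or miR-181a-5p. MLL2 had 8 of its 10 matched peaks with at least 4 G or C only, MLL4 5 of 6 and SETD1A 4 of 5, as in the seed of miR-331-3p or miR-449a. Of the 7581 matched peaks of the table, 3223 had seeds of at most 3 G or C only and 3715 of at least 4 only. Over the 6 genes, 14 peaks with seeds of at most 3 G or C had a median log ratio of 1.17 and 22 peaks with seeds of at least 4 had one of -0.03. This pools genes of different levels, and within genes the order was not the same throughout. With seeds of at most 3 against at least 4 G or C, the medians were 1.34 over 5 and 1.60 over 3 peaks in MLL, 2.27 over 5 and 2.59 at 1 peak in MLL3, and -0.23 at 1 and 0.46 over 4 peaks in SETD1A. They were -0.01 at 1 and -0.09 over 8 peaks in MLL2, 1.27 at 1 and -0.06 over 5 in MLL4, and 0.79 and -0.30 at 1 peak each in SETD1B. In the whole table the medians were 1.42 over 3223 peaks and 0.66 over 3715. The order differed by region. In the 3'UTRs of the 6 genes, 11 peaks with seeds of at most 3 G or C had a median of 1.34. The 7 with seeds of at least 4 had one of -0.08, and both groups again pool genes of different levels. In the CDS of the 6 genes, where only 3 peaks had seeds of at most 3 G or C, the medians were -0.01 and -0.03. In the whole table, peaks with seeds of at most 3 G or C had the higher median in both regions. This grouping was made after the values had been seen, and the sequences of the peaks themselves were not analysed here.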
